A study of Mus musculus with 9 samples.

Results

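MHC class I antigen presentation was followed through 10 genes of the deposited table, matched by gene name: the heavy chains H2-K1 and H2-D1, their light chain B2m, the peptide loading genes Tap1, Tap2 and Tapbp, the immunoproteasome subunits Psmb8, Psmb9 and Psmb10, and the transactivator Nlrc5. All 10 names were found once among the 21899 genes of the table, and all 10 had enough counts to be tested, as had 12448 genes in all. The cells were Neuro-2a (N2a), a line from a mouse neuroblastoma labelled as brain tissue and neuroblast, untreated. Each of the 9 RNA-seq libraries came from cells with 1 short hairpin: 3 had the control hairpin shlucif, which targets luciferase, 3 had shArf1-1 and 3 had shArf1-2, both of which target Arf1. The control cells therefore also carry a hairpin, and the study's methods deliver hairpins with pLKO.1 lentivirus and grow N2a cells in DMEM with fetal bovine serum. The labels do not say whether the libraries of a group came from separate cultures, so p-values measure the spread between libraries, which may be technical. N2a cells come from a strain A mouse, whose class I alleles differ from those of the C57BL/6J reference, and the effect of this on counting was not tested.

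Class I molecules carry peptides from inside the cell to its surface, where CD8 T cells read them. The proteasome cuts proteins, TAP1 and TAP2 pump the peptides into the endoplasmic reticulum, tapasin (from Tapbp) holds TAP and the empty heavy chain together, and the loaded heavy chain leaves with beta-2 microglobulin. Neurons and neuroblastoma cells are known for low class I levels, and interferon raises most of these genes. NLRC5 has no DNA-binding domain of its own and acts on class I promoters through the RFX complex, CREB and NF-Y, which bind neighbouring boxes close to the transcription start.

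The 10 genes lie on 3 chromosomes (GRCm38, GENCODE annotation), and all are protein coding. On chromosome 17, within the mouse MHC, stand Tapbp (ENSMUSG00000024308, chr17:33915899-33929292, plus strand), H2-K1 (ENSMUSG00000061232, chr17:33996017-34000347, minus strand) and H2-D1 (ENSMUSG00000073411, chr17:35262730-35267499, plus strand). Between them a compact block of 34335 bases holds Psmb9 (ENSMUSG00000096727, chr17:34181987-34187764, minus strand), Tap1 (ENSMUSG00000037321, chr17:34187553-34197225, plus strand), Psmb8 (ENSMUSG00000024338, chr17:34197721-34201454, plus strand) and Tap2 (ENSMUSG00000024339, chr17:34203527-34216321, plus strand). Psmb9 and Tap1 are read outward from a shared start region, and their gene bodies overlap by 212 bases on opposite strands. B2m is on chromosome 2 (ENSMUSG00000060802, chr2:122147686-122153083, plus strand). Psmb10 (ENSMUSG00000031897, chr8:105935735-105938444, minus strand) and Nlrc5 (ENSMUSG00000074151, chr8:94434356-94527272, plus strand) are on chromosome 8.

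Promoter windows of 300 bases (250 before to 50 after the start, RefSeq, GRCm38.p6) were matched by symbol for 8 of the 10 genes, all but Tap2 and Nlrc5. The windows of B2m, H2-K1 and H2-D1 are shown because they share 1 arrangement of boxes, that of Tap1 because it lies over the start region shared with Psmb9, and that of Psmb8 because its gene did not pass the test below. Capitals mark matches on either strand to GAAANNGAAA (an interferon response element core), TTCNNNGAA (a STAT site core), GGGNNTTCC (a kappaB core), TGACG (a CREB half-site) and CCAAT (the NF-Y box, ATTGG on the other strand).
B2m, chr2:122147437-122147736, plus strand: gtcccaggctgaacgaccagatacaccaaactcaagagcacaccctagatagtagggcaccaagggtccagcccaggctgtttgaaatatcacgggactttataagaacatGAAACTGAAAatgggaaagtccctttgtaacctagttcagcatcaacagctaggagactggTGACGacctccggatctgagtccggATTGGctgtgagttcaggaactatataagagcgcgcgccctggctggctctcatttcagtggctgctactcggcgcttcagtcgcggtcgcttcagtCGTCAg
H2-K1, chr17:34000298-34000597, minus strand: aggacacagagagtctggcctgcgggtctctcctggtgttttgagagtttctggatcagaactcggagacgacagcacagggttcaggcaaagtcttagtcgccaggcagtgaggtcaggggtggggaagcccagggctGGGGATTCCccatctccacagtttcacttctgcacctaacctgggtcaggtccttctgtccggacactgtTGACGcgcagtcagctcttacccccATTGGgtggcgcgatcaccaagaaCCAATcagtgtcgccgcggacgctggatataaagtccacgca
H2-D1, chr17:35262844-35263143, plus strand: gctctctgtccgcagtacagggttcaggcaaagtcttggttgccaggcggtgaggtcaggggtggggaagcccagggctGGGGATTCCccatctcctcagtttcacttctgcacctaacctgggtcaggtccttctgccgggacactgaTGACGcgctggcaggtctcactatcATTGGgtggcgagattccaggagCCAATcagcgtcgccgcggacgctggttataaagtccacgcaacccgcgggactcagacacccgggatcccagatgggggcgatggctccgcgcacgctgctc
Tap1, chr17:34187306-34187605, plus strand: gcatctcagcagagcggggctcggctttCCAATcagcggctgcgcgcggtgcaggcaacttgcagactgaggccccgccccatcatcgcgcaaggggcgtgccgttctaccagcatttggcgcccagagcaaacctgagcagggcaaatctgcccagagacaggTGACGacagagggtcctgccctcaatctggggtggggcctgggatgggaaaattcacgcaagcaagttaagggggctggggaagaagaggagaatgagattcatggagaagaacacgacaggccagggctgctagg
Psmb8, chr17:34197945-34198244, plus strand: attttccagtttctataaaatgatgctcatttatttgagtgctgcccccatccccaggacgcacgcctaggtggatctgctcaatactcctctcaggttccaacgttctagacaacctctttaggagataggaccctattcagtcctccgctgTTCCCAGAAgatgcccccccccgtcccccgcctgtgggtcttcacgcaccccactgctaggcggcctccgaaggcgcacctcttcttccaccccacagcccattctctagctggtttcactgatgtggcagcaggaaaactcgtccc

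In B2m, H2-K1 and H2-D1 the CREB half-site TGACG was followed, 20 bases on, by ATTGG. It began 78 bases before the RefSeq start in B2m, 41 in H2-K1 and 101 in H2-D1. These distances depend on where RefSeq places each start. The CCAAT after this pair began 8 bases past the start in H2-K1 and 53 before it in H2-D1. The same pair at the same spacing was found on either strand in 31 of the 32851 promoter windows of this length (0.094%), and 1 of these belongs to H2-M3, another class I heavy chain. The spacing was noticed in the class I windows and then counted, so it is a description of them. TGACG alone was in 5 of the 8 windows (B2m, H2-K1, H2-D1, Tap1 and Psmb9) against 20.81% of all windows, and CCAAT in 6 of 8 against 37.41%. The kappaB letters were in H2-K1 and H2-D1 (5.82% of all windows), the interferon element letters in B2m (3.44%) and the STAT letters in Psmb8 (8.3%). The windows of Tap1 and Psmb9 share 275 bases, so their TGACG is 1 site read on opposite strands, as is their CCAAT, and each is counted in both windows above. No match means only that these letters are not in the window.

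Per gene length (FPKM, read counts scaled by gene length and library total), the control cells spread these genes over a wide range. B2m stood at 475 ± 4.84 FPKM (SD, n = 3), at the 99.2nd percentile of tested genes by the mean over all libraries. H2-D1 followed at 163 ± 7.23 and H2-K1 at 107 ± 4.38 FPKM. Tapbp was at 30.1 ± 1.80, Tap2 at 14.2 ± 0.434, Psmb10 at 13.4 ± 1.02 and Tap1 at 8.08 ± 0.130 FPKM. Psmb8 was at 5.01 ± 0.374, Psmb9 at 4.84 ± 0.502 and Nlrc5, at the 8.35th percentile, at 0.920 ± 0.103 FPKM (all SD, n = 3). In that order, Tap2 and Psmb10 overlapped between libraries, as did Psmb8 and Psmb9, while every other pair of neighbours was separate. With shArf1-1 the order became B2m (229 FPKM), H2-D1 (76.7), H2-K1 (59.7), Tapbp (17.9), Psmb10 (15.6), Tap2 (10.8), Psmb8 (4.46), Tap1 (3.01), Psmb9 (2.37) and Nlrc5 (0.194), with overlap only between Tapbp and Psmb10. With shArf1-2 the order was the same, from B2m at 288 and H2-D1 at 95.03 FPKM down to Psmb9 at 3.38 and Nlrc5 at 0.210 FPKM, with no neighbours overlapping. Thus Psmb10 stood below Tap2 in the control mean and above it with either hairpin, and Tap1 stood above Psmb8 in the control and below it with either hairpin.

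The targeted gene, Arf1, was at 672 to 712 CPM with shlucif, 262 to 271 with shArf1-1 and 318 to 352 with shArf1-2 (CPM, counts scaled to a common library total after TMM normalization, the unit used for all values per library from here on). Library totals ran from 11182479 to 15594615 counts, and 11 of the 12 neuroblast markers examined were counted in every group (summed level 1726 to 1822 CPM with shlucif, 2669 to 2968 with shArf1-1 and 2576 to 2823 with shArf1-2). The 19 macrophage and microglia markers examined stood apart by group: they summed to 337 to 409 CPM in the shlucif libraries, 1.19 to 1.71 with shArf1-1 and 1.34 to 2.02 with shArf1-2. In the shlucif group 17 of the 19 had more than 3 counts in at least 1 library, with Lyz2 at 1078 to 1237 and Ctss at 564 to 649 counts, while C1qa and Cx3cr1 had 0 to 2. In each Arf1-deficient group 10 of the 19 had 0 counts in every library, Ctss and Spi1 among them, and no marker exceeded 10 counts. These levels are a description, since the markers could pass the count filter only through the shlucif libraries. Macrophages express class I genes, and the part of these markers' source in the differences between shlucif and Arf1-deficient libraries was not tested. In such bulk samples fewer cells of a type and less RNA per cell cannot be told apart. The other lists moved less: fibroblast markers summed to 14.2 to 16.4 CPM with shlucif and 9.07 to 11.7 in the Arf1-deficient libraries, endothelial markers to 26.2 to 28.2 against 11.5 to 15.8, T cell markers to 17.8 to 23.8 against 16.3 to 24.8 (nearly all of it Lck), and B cell markers to at most 0.507 CPM in any library.

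**Figure D1:**
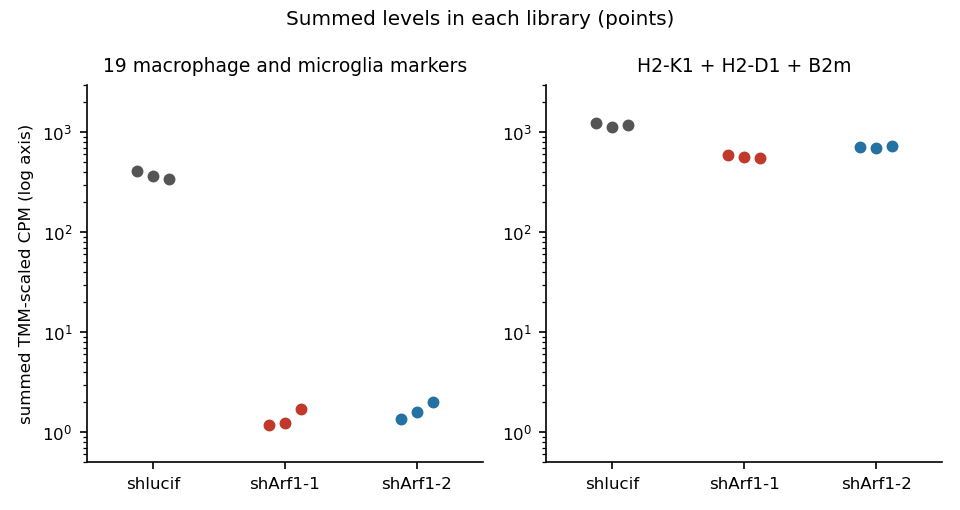
Summed TMM-scaled CPM on a log axis in each of the 9 libraries (1 point each, by group) for 19 macrophage and microglia markers (left) and for H2-K1, H2-D1 and B2m together (right). The markers lie between 337 and 409 CPM with shlucif and between 1.19 and 2.02 CPM with either Arf1 hairpin, while the class I chains lie between 1136 and 1227 CPM with shlucif and between 549 and 724 CPM with either Arf1 hairpin.

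Class I genes were mostly lower in Arf1-deficient cells. Over the 6 libraries with either Arf1 hairpin against the 3 with shlucif, 8 of the 10 genes fell, 0 rose, and Psmb8 and Psmb10 missed the threshold (adjusted p of 0.05) of the edgeR quasi-likelihood (QL) test, with the Benjamini-Hochberg adjustment made over all tested genes. At an unadjusted p under 0.05 by edgeR 1 gene was higher (Psmb10), DESeq2 called 0 higher and limma on FPKM values 1. Most genes moved in this comparison: 64.5% of tested genes passed in either direction, 32.9% lower and 31.6% higher. The median log2 fold change of the 10 genes was -0.79, beside 0.003 for all tested genes. The same 8 genes had every Arf1-deficient library below every shlucif library, which held for 30.1% of tested genes (27.9% were separate in the other direction). The list was drawn up with earlier results of these data known. The 19 macrophage and microglia markers summed to at least 337 CPM in each shlucif library and at most 2.02 CPM in each Arf1-deficient library, and their part in these differences was not tested.

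**Figure D2:**
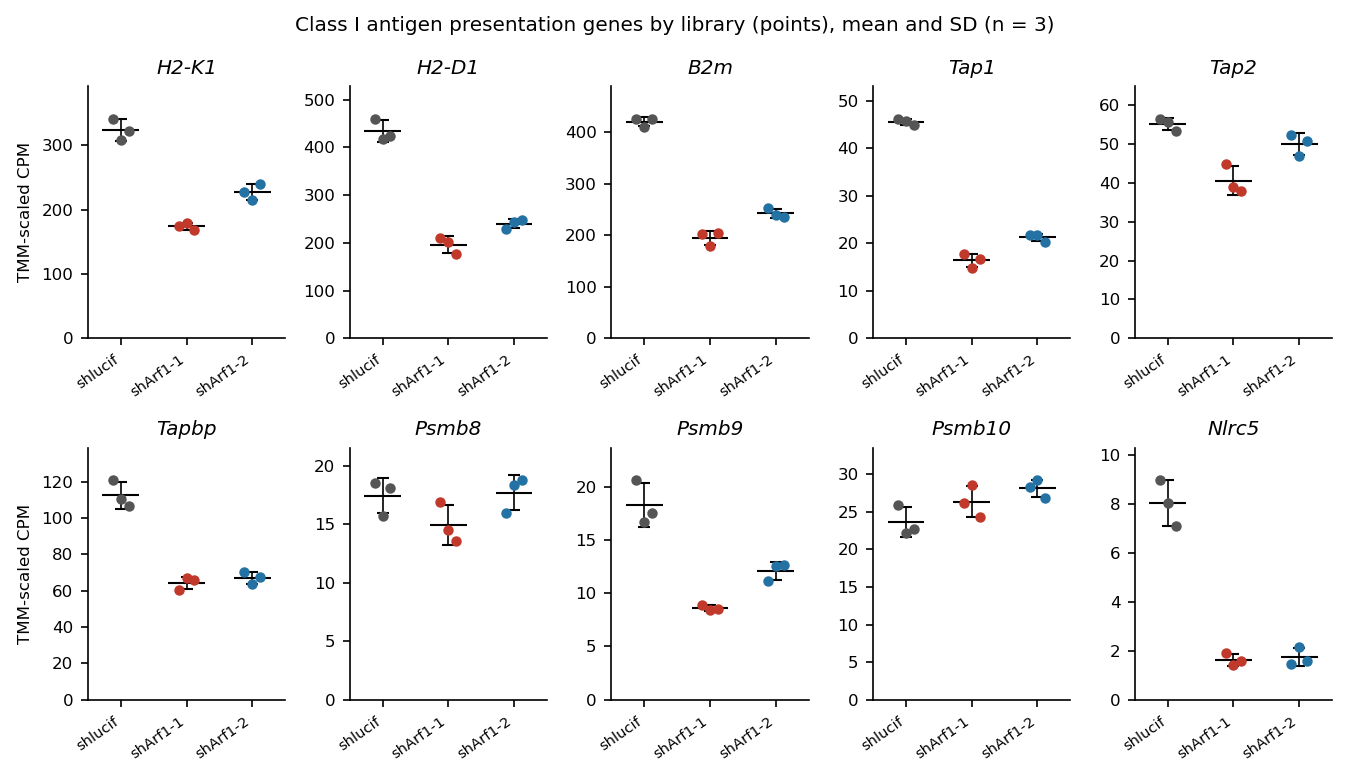
TMM-scaled CPM of the 10 genes in each library (points, coloured by hairpin), with the mean and SD of each group (n = 3), on linear axes from 0. The control points lie above all Arf1-deficient points for every gene except Psmb8 and Psmb10.

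The heavy chains and the light chain all fell, to between 0.504 and 0.621 of the control level. H2-K1 had 308, 322 and 341 CPM in the shlucif libraries, 168, 175 and 179 with shArf1-1, and 215, 228 and 241 with shArf1-2. The 3 groups did not overlap, and the shArf1-2 libraries lay between the others. The log2 fold change was -0.69 with a standard error of 0.11 (adjusted p = 0.000235, edgeR QL test, Benjamini-Hochberg). H2-D1 had 417, 423 and 460 CPM with shlucif, 177, 202 and 210 with shArf1-1, and 229, 244 and 248 with shArf1-2. These groups were again separate, and the log2 fold change was -0.99 (standard error 0.09, adjusted p = 1.47e-07 by the same edgeR test). B2m, the subunit every classical class I molecule needs, had 411, 426 and 426 CPM with shlucif, 179, 203 and 204 with shArf1-1, and 236, 239 and 253 with shArf1-2. The order of groups was that of the heavy chains, and the log2 fold change of B2m was -0.94 (standard error 0.08, adjusted p = 1.68e-07 by the same edgeR test). Of the 75-base stretches of their longest reference transcripts, 1.33% in H2-K1 and 7.10% in H2-D1 also occur in other genes, mainly class I heavy chains, and 0 in B2m. Heavy chain reads from such stretches could be assigned to a relative, and the share for the strain A alleles of N2a was not measured.

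Among the peptide loading genes Tap1 changed most and Tap2 least. Tap1 had 44.9, 45.7 and 46.2 CPM with shlucif, 14.8, 16.6 and 17.7 with shArf1-1, and 20.4, 21.6 and 21.7 with shArf1-2. All 3 groups were separate, and the log2 fold change was -1.27 (standard error 0.10, adjusted p = 2.62e-09, edgeR QL test, Benjamini-Hochberg). Tap2, the partner subunit of the transporter, had 53.3, 55.6 and 56.5 CPM with shlucif, 38.0, 38.8 and 44.9 with shArf1-1, and 46.9, 50.8 and 52.5 with shArf1-2. The highest shArf1-2 library came within 1 CPM of the lowest control without overlapping it, and the log2 fold change was -0.28 (standard error 0.09, adjusted p = 0.013 by the same edgeR test). This call was lost with library size scaling (adjusted p = 0.0532) and without shlucif replicate 1 (adjusted p = 0.0509), both by edgeR. It was also lost with limma on log2(FPKM + 1) (adjusted p = 0.064) and on log2(FPKM + 0.1) (adjusted p = 0.0642). Tapbp, the tapasin gene, had 106, 110 and 121 CPM with shlucif, 60.6, 65.8 and 66.9 with shArf1-1, and 63.5, 67.6 and 70.2 with shArf1-2. Its control libraries were all higher than the rest and its hairpins overlapped, and the log2 fold change was -0.77 (standard error 0.06, adjusted p = 2.61e-09 by edgeR). Antisense genes share 8.97% of the 75-base stretches of Tap2 and most of the 17.5% that Tapbp shares, and whether counting used strand is not given in the sources used here.

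The immunoproteasome subunits went different ways. Psmb9, which replaces Psmb6, had 16.7, 17.5 and 20.6 CPM with shlucif, 8.44, 8.49 and 8.91 with shArf1-1, and 11.2, 12.6 and 12.6 with shArf1-2. The 3 groups were separate, and the log2 fold change was -0.81 (standard error 0.14, adjusted p = 5.03e-05, edgeR QL test, Benjamini-Hochberg). Psmb8, which replaces Psmb5, had 15.7, 18.1 and 18.5 CPM with shlucif, 13.6, 14.5 and 16.9 with shArf1-1, and 15.99, 18.36 and 18.74 with shArf1-2. These groups overlapped, and the log2 fold change of -0.10 (95% interval -0.34 to 0.15, adjusted p = 0.483 by the same edgeR test) did not pass. Psmb10, which replaces Psmb7, had 22.2, 22.7 and 25.9 CPM with shlucif, 24.3, 26.2 and 28.5 with shArf1-1, and 26.8, 28.3 and 29.2 with shArf1-2. The Arf1-deficient values overlapped the highest control, and the log2 fold change of 0.21 (95% interval 0.02 to 0.39) had an adjusted p of 0.0507 by edgeR. By edgeR it passed with library size scaling (adjusted p = 0.0132), without shlucif replicate 1 (0.0276) and without shArf1-1 replicate 3 (0.023). It also passed with limma on log2(FPKM + 1) (adjusted p = 0.00562) and on log2(FPKM + 0.1) (0.0055).

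Nlrc5, the class I transactivator, had the largest log2 fold change of the 10 genes. It had 7.12, 8.06 and 8.97 CPM with shlucif, 1.42, 1.58 and 1.91 with shArf1-1, and 1.48, 1.60 and 2.16 with shArf1-2. As counts these were 94 to 119 in the control, 16 to 25 with shArf1-1 and 22 to 30 with shArf1-2, so the hairpin libraries rest on few reads. The control stood well above both hairpins, which overlapped, and the log2 fold change was -2.24 (standard error 0.19, adjusted p = 5.93e-09, edgeR QL test, Benjamini-Hochberg). On log2(FPKM + 1) it was -0.68 with limma, where the pseudocount is close to the gene's highest level of 1.02 FPKM, and it still passed.

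Each hairpin was also set against shlucif by itself, and both comparisons use the same 3 control libraries. With shArf1-1, 8 of the 10 genes were lower and the other two did not pass, where 34.4% of tested genes were lower, 33.1% higher and 67.5% changed in either direction by edgeR's test. With shArf1-2, 7 were lower and 1 higher, where 32.6% were lower, 30.9% higher and 63.4% changed. The median log2 fold change of the 10 genes was -0.99 with shArf1-1 and -0.67 with shArf1-2. For H2-K1 the log2 fold changes were -0.90 and -0.51, for H2-D1 -1.14 and -0.85, and for B2m -1.11 and -0.80, shArf1-1 first. For Tap1 they were -1.48 and -1.10, for Tapbp -0.80 and -0.75, for Psmb9 -1.08 and -0.59, and for Nlrc5 -2.29 and -2.20. Tap2 passed with shArf1-1 (-0.45, adjusted p = 6.99e-06 by edgeR's test) and was at -0.14 with shArf1-2 (adjusted p = 0.112). Psmb10 was at 0.16 with shArf1-1 (adjusted p = 0.157 by edgeR's test) and passed with shArf1-2 at 0.25 (adjusted p = 0.0212), a call that was lost without any 1 of shlucif replicates 2 and 3 and shArf1-2 replicates 1 and 2 (adjusted p from 0.051 to 0.091). Psmb8 was at -0.23 and 0.02 and passed with neither, although with shArf1-1 it passed without shlucif replicate 2 (adjusted p = 0.0461 by edgeR's test) and without shArf1-1 replicate 1 (0.0349).

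**Figure D3:**
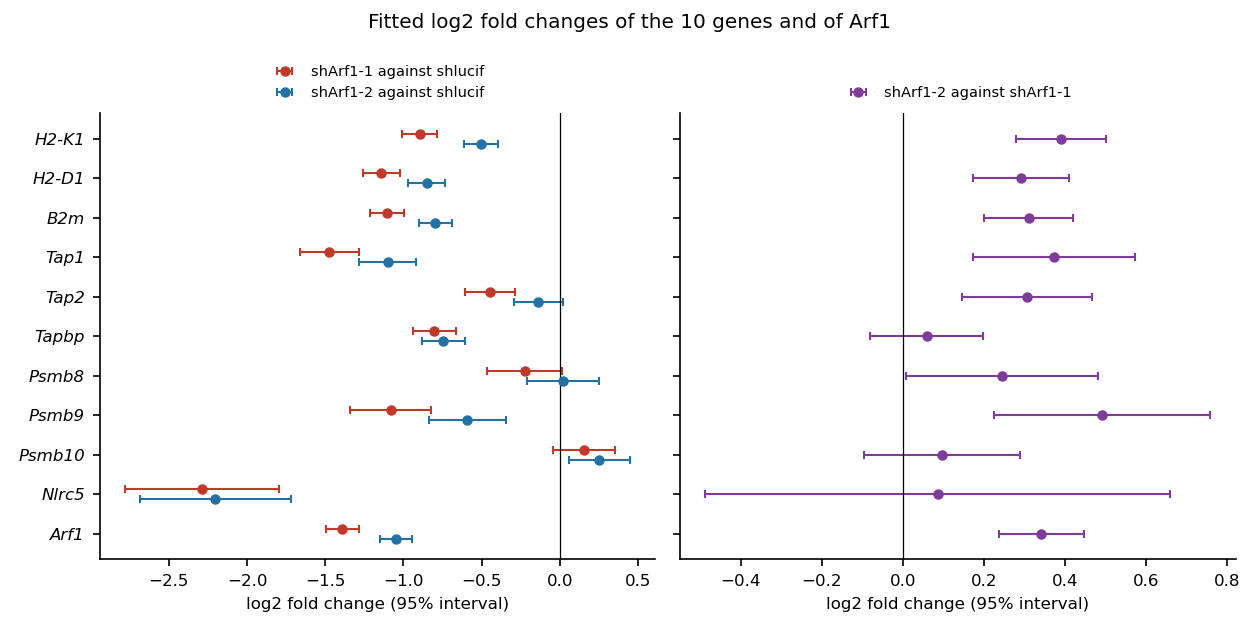
Fitted log2 fold changes with 95% intervals for the 10 genes and Arf1, for each hairpin against shlucif (left) and for shArf1-2 against shArf1-1 (right). Intervals left of 0 on the left panel mark lower levels than in the control, and on the right panel H2-K1, H2-D1, B2m, Tap1, Tap2, Psmb9 and Arf1 lie to the right of 0, past the adjusted threshold.

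The difference between the hairpins was tested directly. Of the 10 genes, 6 were higher with shArf1-2 than with shArf1-1, and by edgeR, DESeq2 or an unadjusted p under 0.05 by edgeR 0 were lower, in a comparison in which 14.4% of tested genes differed by edgeR's test, 6.98% higher and 7.46% lower with shArf1-2. The differences on the log2 scale were 0.39 for H2-K1 (standard error 0.06, adjusted p = 3.85e-06 by edgeR), 0.29 for H2-D1 (0.06, 0.000594) and 0.31 for B2m (0.05, 0.000105). They were 0.37 for Tap1 (standard error 0.10, adjusted p = 0.00823 by edgeR), 0.31 for Tap2 (0.08, 0.00703) and 0.49 for Psmb9 (0.13, 0.00928). The call for Tap2 was lost without shArf1-2 replicate 1 (adjusted p = 0.0532 by edgeR). These 6 genes had every shArf1-2 library above every shArf1-1 library. The share of all tested genes separated in this way was not counted, so this is a description. Arf1 itself was higher with shArf1-2 by 0.34 (standard error 0.05, adjusted p = 1.16e-05 by edgeR). The macrophage and microglia markers were near 0 under both hairpins (summed 1.19 to 1.71 CPM with shArf1-1 and 1.34 to 2.02 with shArf1-2), with at most 10 counts for any marker. Such counts are too few to show a small difference between the hairpins, and the marker sum was not tested. Tapbp differed by 0.06 (95% interval -0.08 to 0.20), Psmb10 by 0.10 (-0.10 to 0.29), Psmb8 by 0.25 (0.01 to 0.48) and Nlrc5 by 0.09 (-0.49 to 0.66), and none of these 4 passed the adjusted threshold. The interval of Nlrc5 is wide, so a difference as large as that of H2-K1 was not detectable at its depth.

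Ratios between 2 genes within a library do not depend on how libraries are scaled, and 6 were compared by an exact two-sided permutation test over the 9 libraries, with Benjamini-Hochberg adjustment over the 6. The smallest p that 6 against 3 libraries allow is 0.0238. Every ratio that passed, here and below, was at this smallest p. Their adjusted p of 0.0476 passed only because several of the 6 ratios were tied there. The test also treats the 6 Arf1-deficient libraries as 1 group, although they carry different hairpins. The FPKM ratio of B2m to H2-K1 plus H2-D1 was 1.68 to 1.81 with shlucif, 1.499 to 1.88 with shArf1-1 and 1.54 to 1.77 with shArf1-2, with overlapping groups (log2 difference -0.08, exact permutation p = 0.333, adjusted 0.4). H2-D1 to H2-K1 was 1.497 to 1.54 in the control and 1.14 to 1.36 in the 6 Arf1-deficient libraries, lower in 6 of 6 (difference of -0.30 on the log2 scale, exact permutation p = 0.0238, adjusted 0.0476). Tap1 to Tap2, the subunits of 1 transporter, was 0.564 to 0.582 in the control, 0.264 to 0.302 with shArf1-1 and 0.277 to 0.320 with shArf1-2. This ratio was lower in 6 of 6 libraries (difference of -0.998 on the log2 scale, exact permutation p = 0.0238, adjusted 0.0476).

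Each immunoproteasome subunit was also set against the standard subunit whose place it takes. Psmb9 to Psmb6 was 0.0426 to 0.0508 with shlucif, 0.0219 to 0.0249 with shArf1-1 and 0.0329 to 0.0386 with shArf1-2, lower in 6 of 6 libraries (log2 difference -0.66, exact permutation p = 0.0238, adjusted 0.0476). Psmb8 to Psmb5 was 0.168 to 0.190 with shlucif, 0.110, 0.116 and 0.193 with shArf1-1 and 0.194 to 0.197 with shArf1-2, and it did not pass (log2 difference -0.11, exact permutation p = 0.833). Here 1 shArf1-1 library stood with the shArf1-2 libraries and the other two below the control. Psmb10 to Psmb7 was 0.248 to 0.296 with shlucif, 0.276 to 0.375 with shArf1-1 and 0.328 to 0.349 with shArf1-2, with a log2 difference of 0.27 (exact permutation p = 0.0476, adjusted 0.0714). Thus of the 3 replaceable sites, 1 passed the adjusted threshold, toward the standard subunit. As the macrophage and microglia markers were lower in the Arf1-deficient libraries, their source could also enter these and the preceding ratios, and its part was not tested.

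**Figure D4:**
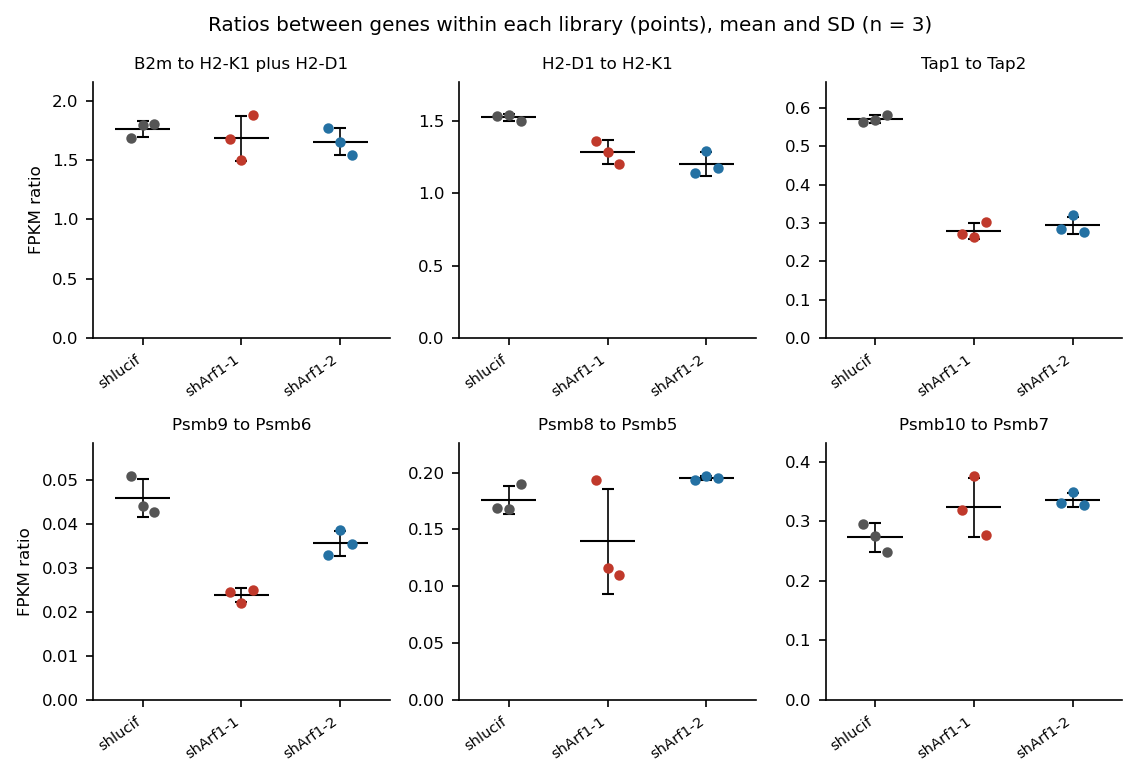
FPKM ratios between pairs of genes in each library (points), with mean and SD per group (n = 3), on linear axes from 0. Tap1 to Tap2 lies at 0.564 to 0.582 with shlucif and at 0.264 to 0.320 with either Arf1 hairpin, while B2m to the heavy chains overlaps between groups.

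Other class I heavy chains were counted at far lower levels. Of 14 further heavy chain genes in the table, 5 had enough counts to be tested, and 3 were called lower in Arf1-deficient cells while the other two did not pass, beside 32.9% of all tested genes called lower. The summed macrophage and microglia markers were lower in the same libraries, and their part in these values was not tested. H2-Q4 went from 48 to 50 counts in the shlucif libraries to 6 to 16 in the Arf1-deficient libraries (log2 fold change -2.14, adjusted p = 8.85e-07 in the edgeR QL test). H2-T22 went from 81 to 93 counts to 24 to 60 (-1.21, adjusted p = 6.41e-05 by edgeR). H2-T23, which encodes the non-classical molecule Qa-1, went from 34 to 66 counts to 0 to 11. It passed the count filter, and is among the 3 called lower, only through its shlucif counts, so its values are a description. H2-M3, named because its promoter window holds the paired boxes shown above, was at -0.47 over both hairpins (adjusted p = 0.0563 by edgeR). By itself shArf1-1 gave -0.89 (adjusted p = 1.68e-05 by edgeR) and shArf1-2 gave -0.16 (adjusted p = 0.367). H2-M3 was 0.73 higher with shArf1-2 than with shArf1-1 (adjusted p = 0.00253 by edgeR). These genes share sequence with each other, so their counts are less certain than those of B2m or Tap1.

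Of 5 class I-like genes tested, 3 fell and the other two did not pass (median -1.71, beside 0.003 for all tested genes), where 32.9% of all tested genes fell. The macrophage and microglia markers were lower in the same libraries, and their part in these differences was not tested. Mr1, which presents microbial vitamin B metabolites, fell by 1.71 on the log2 scale (adjusted p = 1.23e-05 in the edgeR QL test). Fcgrt, the heavy chain of the neonatal Fc receptor that also pairs with beta-2 microglobulin, fell by 1.74 (adjusted p = 9.38e-10 by edgeR). Procr, the endothelial protein C receptor, which has the class I fold and no beta-2 microglobulin, fell by 2.33 (adjusted p = 1.13e-10 by edgeR). Cd1d1 and Hfe did not pass the test.

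Genes of the general machinery around class I were read beside the 64.5% of all tested genes that changed, 31.6% rising and 32.9% falling. Of 6 genes for loading chaperones and peptide trimming, 5 rose and Tapbpl did not pass (median 0.23). Erap1, which trims peptides in the endoplasmic reticulum, rose by 0.42 (adjusted p = 0.00339 in the edgeR QL test), and Hspa5, the chaperone BiP, by 0.30 (adjusted p = 1.88e-05 by edgeR). Of 7 genes of the standard proteasome, its PA28 activators and its assembly, 2 rose and 2 fell (median -0.06), a share called no larger than that of all tested genes. Psme3, the nuclear PA28 gamma, rose by 0.64 (adjusted p = 2.57e-09 by edgeR), and Pomp, the proteasome maturation protein, by 0.28 (adjusted p = 0.00515). Of 6 cytosolic peptidases, 1 rose and 2 fell (median -0.03), again no larger a share than among all tested genes. Prep, prolyl endopeptidase, rose by 0.80 (adjusted p = 1.13e-09 by edgeR), and Lap3, leucine aminopeptidase, fell by 0.29 (adjusted p = 0.000221).

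Of 15 tested factors that act on these promoters, 8 fell and 3 rose (median -0.29), where 32.9% of all tested genes fell and 31.6% rose. Irf9, the DNA-binding part of the type I interferon complex, fell by 2.01 on the log2 scale (adjusted p = 6.97e-11 in the edgeR QL test). Irf2 fell by 1.10 (adjusted p = 1.72e-10 by edgeR). Irf8, an interferon factor that macrophages also express, went from 100 to 140 counts in the shlucif libraries to 0 to 3 in the Arf1-deficient libraries, as the macrophage markers did, and is among the 8 only through its shlucif counts. Nfyc, a subunit of the NF-Y complex that binds CCAAT, rose by 1.68 (adjusted p = 3.87e-09 by edgeR). Of 7 interferon receptor chains and kinases 5 fell and the other two did not pass (median -0.36), and Jak2 fell by 1.29 (adjusted p = 3.57e-09 by edgeR). In the Arf1-deficient libraries the macrophage and microglia markers were also lower, and their part in the differences of these factors, receptors and kinases was not tested. Ifng and Ifnb1, the ligands, had 0 counts in all 9 libraries, which bounds them only at about 3 counts per library.

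Of the 9 class II pathway genes in the table, 3 had enough counts to be tested. The chains H2-Aa, H2-Ab1 and H2-Eb1 had at most 2 counts in any library. Cd74, the invariant chain, had 1200 to 1329 counts with shlucif, 545 to 823 with shArf1-1 and 894 to 1050 with shArf1-2, and fell by 0.70 on the log2 scale (adjusted p = 1.36e-05 in the edgeR QL test). H2-DMa, a chain of the class II peptide editor, rose by 0.92 (adjusted p = 2.14e-05 by edgeR), from 60 to 68 counts with shlucif to 99 to 148 in the Arf1-deficient libraries. H2-DMb1, its partner chain, went from 25 to 49 counts with shlucif to 0 to 6 in the Arf1-deficient libraries, and passed the count filter only through shlucif, so no test is given. The summed macrophage and microglia markers were lower in the same Arf1-deficient libraries, and their part in these values was not tested.

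**Figure D5:**
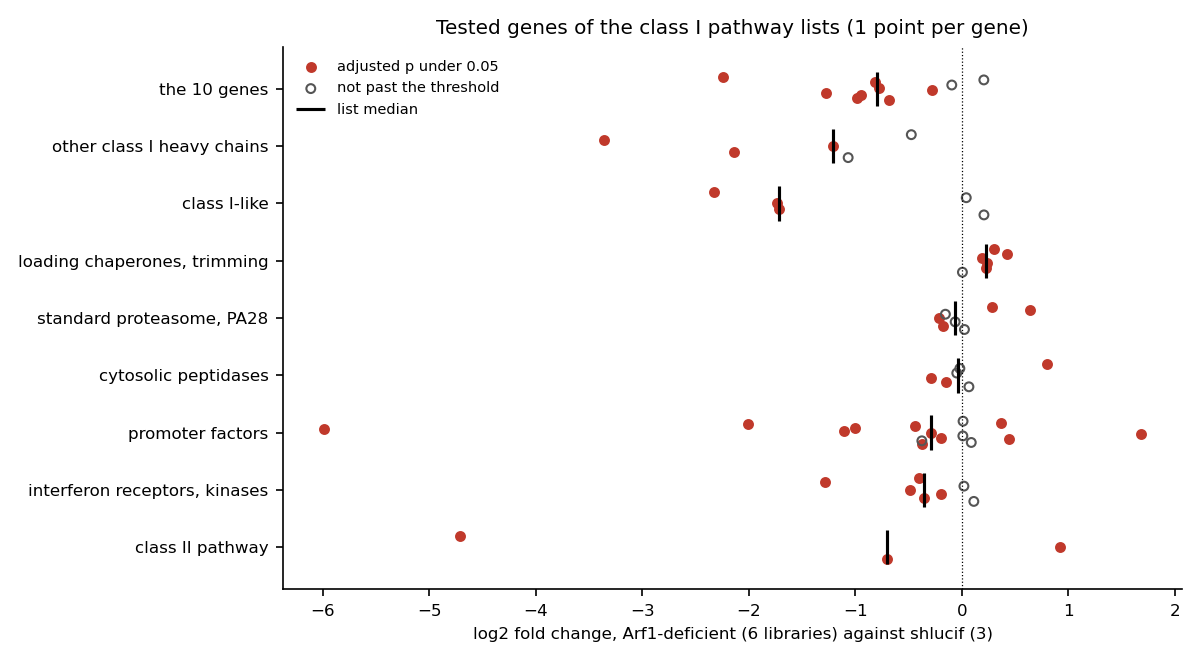
Log2 fold change of each tested gene (1 point per gene) in Arf1-deficient against shlucif libraries, by list, filled where the adjusted p of the edgeR QL test is under 0.05. Black bars are list medians (-0.79 for the 10 genes, 0.23 for loading chaperones and trimming). The dotted line is the median of all tested genes, at 0.003. H2-T23, Irf8 and H2-DMb1 passed the count filter only through shlucif, so their points, and their part in the list medians, are a description.

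Over the 9 libraries, the level of B2m (log2 CPM) was most like that of Tap1, with Pearson r = 0.9973 and 0 of 10236 compared genes higher. Among the others of the 10 genes compared, r was 0.9747 for H2-D1, 0.9639 for H2-K1, 0.954 for Psmb9, 0.9525 for Tapbp, 0.8431 for Tap2, 0.4614 for Psmb8 and -0.6439 for Psmb10. Nlrc5 was left out of this ranking because it averaged under 5 CPM. The 5 genes outside the list with the highest r were Eif3m (0.996), Tiam2 (0.9953), Trit1 (0.9949), Tent5b (0.9944) and Lpin1 (0.9938). Their log2 fold changes in Arf1-deficient cells were -0.34 for Eif3m, -1.31 for Tiam2, -1.05 for Trit1, -2.45 for Tent5b and -1.78 for Lpin1. The 9 points fall into 3 groups, so r draws on the differences between groups, and 229 genes lay closer to B2m than H2-D1 did.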

How the data were processed

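RNA-seq of 9 N2a libraries was used. The authors deposited a whole-number read count, not normalized, and an FPKM value per gene and library, and the FPKM equals the count over the listed gene length and the library total. The labels list mm10, but only 514 of 21795 identifiers start where GENCODE places them, so positions come from GENCODE on GRCm38. The aligner, counter and strand setting are not given in the sources used here. Columns whose gene name carries the number 2 were taken as shArf1-2, by inference. In all, 8 broken annotation lines without values were left out.

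Counts were tested with edgeR 4.0.16 (limma 3.58.1, R 4.3.3) after filterByExpr and TMM, by glmQLFit with robust estimation and glmQLFTest, 6 Arf1-deficient against 3 shlucif libraries, and in a fit of 3 groups for each hairpin and their difference. The threshold was an adjusted p of 0.05 (Benjamini-Hochberg). Standard errors are the log2 fold change over the root of F. CPM are TMM-scaled, and log2 CPM used a prior count of 2. Totals of 11182479 to 15594615 counts set the precision. Ratios of FPKM were tested by exact permutation (SciPy 1.17.1). The script was tested on simulated data.

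The genes named are the 10 members, Arf1, from each list every gene past the threshold with an absolute log2 fold change of at least 1 or otherwise the 2 largest, and the 5 genes most like B2m among those averaging 5 CPM or more. H2-M3, the markers named, the untested class II chains and Cd1d1, Hfe, Tapbpl, Cd74 and H2-DMa were named after their values were seen. The members, lists and ratios were chosen with earlier results of these data known. Alternatives were DESeq2 1.42.0, other scalings and filters, a replicate block, limma on log2(FPKM + 1) or with 0.1 in place of 1, only the 6 libraries compared, and leaving out each library. Values of some genes on these lists are not reported here.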

Additional observations from a re-analysis of the deposited data

Results flagged for a closer look

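The results listed here differed between the hairpins under the same contrast with shlucif, by the direct test of shArf1-2 against shArf1-1 (edgeR QL test, Benjamini-Hochberg over all tested genes). The log2 difference, shArf1-2 minus shArf1-1, was 0.39 for H2-K1, 0.29 for H2-D1, 0.31 for B2m, 0.37 for Tap1, 0.31 for Tap2 and 0.49 for Psmb9. All 3 shArf1-2 libraries were above all 3 shArf1-1 libraries for each of these genes, a description, since the share of all tested genes separated in this way was not counted. Groups of 3 libraries were not screened for single libraries that stand apart.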

How the results depend on the processing

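For the comparison of Arf1-deficient with shlucif libraries, the number of the 10 genes called lower was 7 or 8 and the number called higher 0 or 1 under every setting run. The 1 gene called higher was Psmb10, with library size scaling, with limma on log2(FPKM + 1) and with limma on log2(FPKM + 0.1). With both limma settings it was also called higher with shArf1-1 (1 in place of 0). Leaving out 1 library gave 0 to 1 called higher over both hairpins and 0 to 1 with shArf1-2. Between the hairpins, leaving out 1 library gave 1159 to 1977 genes called against 1798 with all libraries, fewest without replicate 1 of shArf1-1 (1159) or of shArf1-2 (1194), both with fewer samples. Single values that changed sign were those of Psmb8 with shArf1-2, which ran from -0.049 to 0.09 when 1 library was left out and was below 0 without shlucif replicate 2, shArf1-2 replicate 2 and shArf1-2 replicate 3, and the hairpin difference of Nlrc5, which ran from -0.091 to 0.203 and was below 0 without shArf1-2 replicate 2. The causes were not tested. Ratios between genes were not recomputed without single libraries.

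With the replicate number as a replicate block, 7808 genes were called for the 6 against 3 libraries, 8431 and 7939 for shArf1-1 and shArf1-2, and 1809 between the hairpins. Same-numbered libraries did not deviate together: the correlations of their deviations ran from -0.08 to 0.09 over 9 pairs, so the numbers were not taken as pairs. Nlrc5, at 16 to 30 counts in the Arf1-deficient libraries, is the member whose precision depth limits most.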
